A study of Homo sapiens with 14 samples.

Results

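The ribosome biogenesis factors described here are 49 genes among the 58434 symbols of an RNA sequencing count table from MDA-MB-231, an established line of triple negative breast cancer. A symbol counted as a member when it began with UTP, NOP, NOL or RRP and a digit, when it was POLR1 followed by a letter from A to E, or when it was FBL, DKC1, NCL, BOP1, PES1, WDR12, GNL3 or NHP2. Of 54 symbols that matched, 5 were pseudogenes and were left out. By role, 5 members are subunits of RNA polymerase I, 3 are box C/D proteins, 3 are box H/ACA proteins, 1 is nucleolin, 20 act in making the small ribosomal subunit and 13 the large one. The remaining 4 (NOL3, NOL4, NOL4L and NOP14-AS1) match by name and are not known to act in ribosome assembly. Each cell line carried a doxycycline-inducible shRNA construct, non-silencing in shNSi cells and directed at DAP5 in shDAP5 cells, and all cultures were given doxycycline at 1 µg/ml for 6 days. From 2 cultures of each line the whole mRNA and the light and heavy polysome pools of a gradient were sequenced, and from the shNSi cultures alone also a moderate pool, which makes 14 libraries. A single silencing construct was used, so loss of DAP5 and any other effect of that construct or line cannot be told apart. By their titles the shDAP5 light libraries are light polysomes, but they carry the code that marks the moderate pool in shNSi cells, and the shDAP5 total libraries are titled total polysome. Both were taken by title and used as light polysome and total mRNA.

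Ribosome assembly starts in the nucleolus, where RNA polymerase I copies ribosomal DNA into a long precursor RNA that is modified, cut and packed with proteins into a small and a large subunit. Box C/D particles methylate this RNA and box H/ACA particles turn uridines into pseudouridines, while UTP proteins form much of the processome of the small subunit and PES1, BOP1 and WDR12 act as a complex on the large one. Fast-growing tumour cells make many ribosomes, and DAP5, the product of EIF4G2, is a relative of the initiation factor eIF4G that lacks its site for the cap-binding protein.

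Library totals ran from 25899838 to 30795910 counts. Levels are given as CPM, counts scaled to a common depth with TMM factors over all 14 libraries, and each is a share of its own library, so the amount of mRNA in a pool was not measured. In total mRNA, EIF4G2 stood at 1390 and 1360 CPM in the shNSi cultures and at 525 and 730 CPM in the shDAP5 cultures. It stood at 1560 and 1560 against 565 and 680 CPM in light polysomes, and at 1490 and 1390 against 709 and 697 CPM in heavy polysomes. The lines did not overlap in any of the 3 fractions, with shDAP5 the lower, as the labels say it should be. The log2 change in total mRNA was −1.11 (SE 0.18, adjusted p = 0.0172), from the quasi-likelihood fit of edgeR with p adjusted over all genes tested. Over 13 other ways of processing it ran from −1.37 to −0.90, with adjusted p from 4.74e-07 without a filter on low counts to 0.680 without shDAP5 culture 1. It also missed the threshold of 0.05 with library size alone, limma, all 14 libraries in 1 fit or a coding length offset (adjusted p = 0.0501, 0.0612, 0.443 and 0.0782). In light and heavy polysomes the log2 changes of −1.33 and −0.86 did not pass (adjusted p = 0.430 and 0.0691). Among markers of the line, median CPM over the libraries was 4370 for VIM, 783 for AXL, 567 for CAV1, 326 for CD44 and 86.2 for EGFR, while PGR had 0 counts in every library and ESR1 and CDH1 reached at most 0.606 and 0.249 CPM. GATA3 and ERBB3 were low but present, with medians of 12.4 and 4.50 CPM, and PTPRC and ALB, which mark leukocytes and liver, reached 0.218 and 0.102 CPM.

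Of the 49 members, 48 passed the filter on low counts, and NOL4 had at most 1 count in any library. Per kilobase of reference transcript, mean levels over the 4 total mRNA libraries were highest for NOP10 (357 CPM per kb), FBL (284) and NCL (262). Among the polymerase subunits POLR1D was most abundant, at 84.1 CPM per kb, and POLR1A least, just under POLR1B at 10.1 CPM per kb. Per kilobase of coding sequence that last order turned, with POLR1A at 24.8 and POLR1B at 13.5 CPM. The box C/D proteins ran from NOP58 at 62.6 CPM per kb to FBL, and the box H/ACA proteins from DKC1 at 92.6 CPM per kb to NOP10. Small subunit factors spanned 140 CPM per kb for NOL7 to 3.16 for UTP14C, large subunit factors 103 for GNL3 to 0.759 for NOL12, and the name matches 17.2 for NOL3 to 0.00431 for NOL4. The members together held 0.427% to 0.901% of a library's counts. Their summed level in heavy polysomes was 9410 and 12800 CPM in the shNSi cultures and 5320 and 6680 CPM in the shDAP5 cultures. In total mRNA it was 5420 and 6700 against 4830 and 5680 CPM, and in light polysomes 3770 and 5080 against 3710 and 3900 CPM. The lines were apart in the heavy pool and overlapped in the other fractions, and the shNSi moderate pool, at 4230 and 7550 CPM, had the widest ratio between its cultures.

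**Figure D1:**
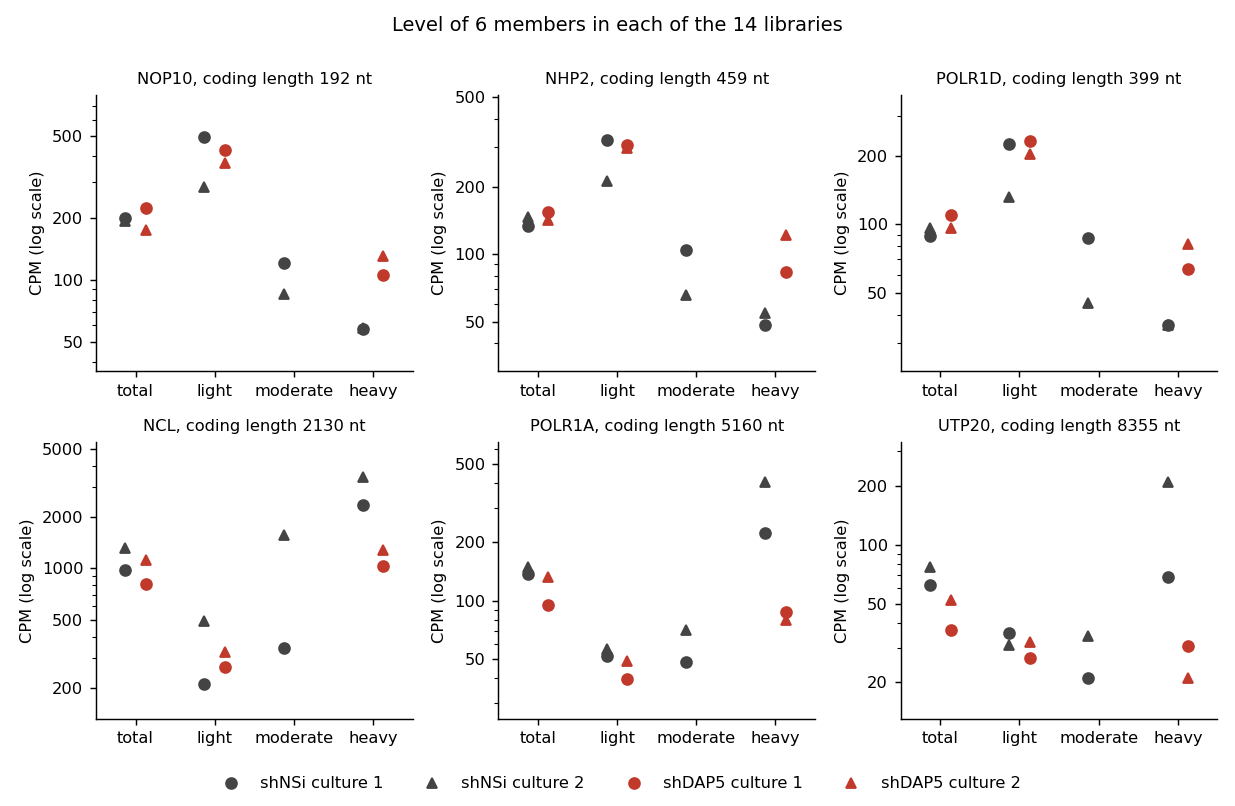
Level in CPM (log axis) of 6 members in each library, with grey symbols for shNSi and red for shDAP5, circles for culture 1 and triangles for culture 2. The short NOP10, NHP2 and POLR1D mRNAs are highest in light polysomes, the longer NCL mRNA and in shNSi cells POLR1A are highest in heavy polysomes, where the lines separate, and the moderate pool of NCL, POLR1A and UTP20 lies below the shNSi heavy pool.

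The bases around the start codon are shown for members at both ends of the heavy polysome comparison and for NCL, because they are what the scanning ribosome reads. In each line 10 bases stand before the start codon, which is in capitals, and 7 after it, 5′ to 3′ on the mRNA strand, from GENCODE v29 transcripts of GRCh38.
NOP10: ataagcgatcATGtttctcc
NHP2: ggccgctgcgATGaccaaaa
POLR1D: cgccccagcgATGgaagagg
NCL: cgccgccatcATGgtgaagc
NOL11: tttgctcaaaATGgcagcgc
POLR1A: gacctggaggATGttgatct
UTP20: ctctgcagccATGaagacaa
A purine 3 bases before the start codon together with a G just after it (ANNATGG or GNNATGG) was present in 25 of 44 tested members with a sequence (56.8%) and in 5597 of 12350 genes (45.3%). BOP1 and UTP23 were left out of the 44 for their chromosome, which the 12350 genes include. NOL11, which fell, POLR1D, which rose, and NCL carry it, and the other 4 of those shown do not. In RefSeq promoter windows of GRCh38.p14, from 250 bases before to 50 after the transcript start, the palindrome CACGTG, an E box of the kind MYC binds, was found in 13 of 41 members and in 1043 of 10384 genes. The 13 include NOP10 and NOL7 as well as UTP20, NOP14 and UTP14A, and no binding was measured.

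Where each mRNA sat in the gradient was read from heavy over light polysome levels within a culture. A gene counts as passing when its adjusted p is under 0.05, and every such p rests on 2 cultures per line. Between the lines, an exact permutation test of 2 against 2 cultures could not go below 0.333. In shNSi cells 31 of 48 members were higher in heavy polysomes and 10 lower, against 30.5% and 31.1% of all 15878 genes tested (61.6% in either direction). The members' median log2 ratio was 1.70 and that of all genes −0.15. In shDAP5 cells 28 members were higher in heavy polysomes and 4 lower, against 19.8% and 19.9% of all genes (39.7% in either direction), with a median of 0.85 for the members and −0.03 for all genes. Most members thus sat toward heavy polysomes in both lines, and the short mRNAs NOP10, NHP2 and POLR1D lay toward light polysomes in both. With the moderate pool in place of the shNSi heavy pool the shNSi counts were 16 and 4 (33.4% of all genes). The shDAP5 counts were 10 and 0 without shDAP5 culture 1 (12.2% of all genes), and 4 and 3 without shDAP5 culture 2 (10.7%). Without TMM the median of all genes was −0.59 in shNSi and −0.23 in shDAP5 cells, and the members stood 1.84 and 0.88 above it, as they did with TMM.

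**Figure D2:**
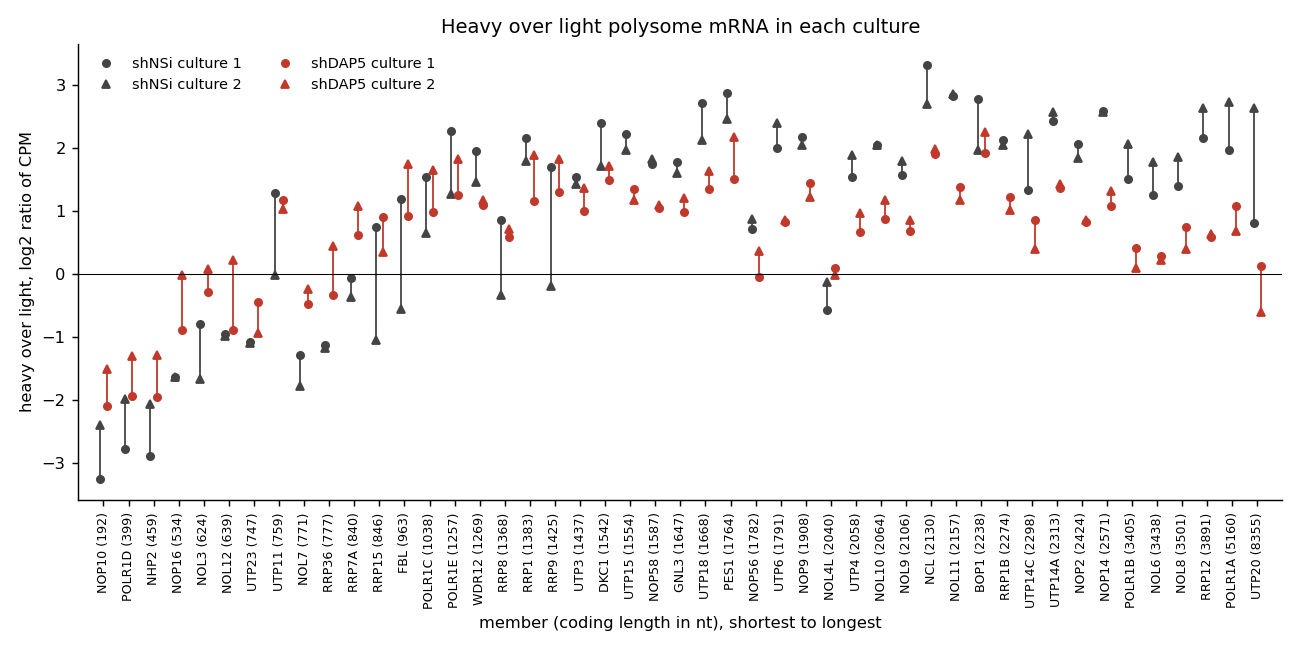
Heavy over light polysome level (log2 ratio of CPM) of 47 members with a coding length, in order of that length, with 1 symbol per culture and a line joining the cultures of a cell line. Ratios below 0 gather among short mRNAs, and from UTP20 to NOP10 most shDAP5 values lie nearer 0 than the shNSi values, with FBL, RRP9, RRP15 and UTP20 spread widely between the shNSi cultures.

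In total mRNA the members' median change was small. By edgeR 0 of 48 passed, against 0.354% of all 14992 genes (0.0867% higher and 0.267% lower), 6 had an unadjusted p under 0.05 (1799 of all genes), DESeq2 called NOL4L and limma called 0. The median log2 change was −0.19 for the members and 0.01 for all genes, with 39 of 48 below 0. Cultures of the lines did not overlap for 18 members that were lower and 3 that were higher in shDAP5 cells, where 20.4% and 21.9% of all genes showed this. NOL4L, with 11.4 and 11.1 CPM in shNSi cultures and 18.2 CPM in the lower of the shDAP5 cultures, had a log2 change of 1.00 (adjusted p = 0.0800). NOL9 and RRP12 were called lower without shNSi culture 1 and NOL4L higher without shDAP5 culture 2, while NOL4L and RRP12 were called when no filter on low counts was used. With an offset for coding length in each library 0 of 47 passed by edgeR (7 at an unadjusted p under 0.05), against 0.048% of genes, all of them lower. In these bulk libraries a lower level in every cell and a level lost from some of the cells cannot be told apart.

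Light polysomes gave no member call. By edgeR 0 of 48 passed, against 0.0% of 15529 genes, 3 had an unadjusted p under 0.05 (1330 of all genes), and DESeq2 and limma called 0. The median log2 change was −0.25 for the members and −0.01 for all genes, with 7 members lower and 2 higher without overlap of the cultures, shares that were 20.2% and 21.3% over all genes. Members were called when shNSi culture 1 was left out, and not when any other culture was. That fit holds 1 shNSi light library and takes its spread from the shDAP5 cultures. It therefore does not show which shNSi culture deviates. The shNSi light libraries had Pearson's r of 0.948 across 12107 genes, which are not independent replicates, and the shDAP5 light libraries 0.987. With the moderate pool in place of shNSi light polysomes 10 members were called lower and 5 higher (25.5% of all genes), and without a filter RRP9 was called. For light polysomes over total mRNA within a culture, the light translation efficiency, edgeR, DESeq2 and limma called 0 of 48 (0.0% of 15967 genes), and 0 had an unadjusted p under 0.05 by edgeR (833 of all genes). The median was −0.02 for the members and 0.01 for all genes. The shDAP5 light libraries carry the code of the moderate pool. With the moderate pool in place of shNSi light polysomes 10 members were called lower and 5 higher in light translation efficiency (27.5% of all genes).

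Heavy polysomes separated the lines. There 21 of 48 members fell and 9 rose in shDAP5 cells, against 16.7% and 14.2% of 14270 genes (30.9% in either direction), while DESeq2 called 24 and 9 (28.0% of all genes in either direction) and limma 19 and 9 (27.4%). The median log2 change was −0.70 for the members and 0.09 for all genes. Cultures did not overlap for 29 members that were lower and 11 that were higher, where 30.9% and 36.4% of all genes showed this. The small subunit factors among those that fell are the 13 with the longest coding sequences of the 20, and the 8 rises apart from NOL4L came from members with short coding sequences. Scaling moved every gene together, since without TMM the median of all genes was 0.34 and that of the members −0.47, but the gap between them was −0.80 with TMM and −0.81 without. Of the 30 members called, 23 were called without TMM, where 25.5% of all genes passed in either direction. Without shDAP5 culture 2 no member passed by edgeR (29 had an unadjusted p under 0.05). Without shNSi culture 2 the counts were 8 lower and 6 higher (14.1% of all genes), and without shDAP5 culture 1 they were 11 and 7 (19.9%). With the shNSi moderate pool in place of the heavy pool 0 of 48 passed (0.344% of all genes) and 1 had an unadjusted p under 0.05. Of the 30 members called before, 7 kept their direction. The heavy pools of both lines carry the same code, so this swap sets unlike pools against each other. With the heavy and moderate pools added, NOL4L was called higher and RRP12 and UTP20 lower (2.77% of all genes in either direction). The fit without shDAP5 culture 2 leaves 1 shDAP5 library, and almost no gene of any kind passed in it. Calls lost there, here and below, are thus not particular to the members.

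Heavy translation efficiency, the heavy polysome level over total mRNA within a culture, gave a smaller set of calls. It fell for 9 of 48 members and rose for 7, against 8.23% and 4.85% of 15374 genes (13.1% in either direction). The median log2 change was −0.58 for the members and 0.09 for all genes, while 30 members were lower and 13 higher without overlap of the cultures (28.0% and 32.2% of all genes). The median member stood at 0.64 and 0.89 in the shNSi cultures and at 0.17 and 0.15 in the shDAP5 cultures, as log2 of heavy over total, and the lines did not overlap. DESeq2 called 15 lower and 6 higher (13.2% of all genes in either direction), and limma called NOL11 and RRP12 lower and NOL7, NOP10, NOP16 and RRP36 higher (5.96%). By edgeR 0 members passed without TMM or without a term for each culture, with 27 and 26 at an unadjusted p under 0.05. Of all genes 0.0% passed in either of these fits. With 1 culture left out the members' median ran from −0.63 to −0.48. No member passed without shNSi culture 2 or without shDAP5 culture 2, where almost no gene of any kind did. In place of the heavy pool, the moderate pool gave 0 calls (0.0% of all genes), 5 at an unadjusted p under 0.05 and a median of 0.30, the other direction. With the heavy and moderate pools added there were 0 calls (0.0% of all genes), 0 at an unadjusted p under 0.05 and a median of 0.00. A fit with a culture left out holds 1 culture of that line, so its calls are not set against all genes.

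The change of heavy over light polysomes between the lines uses no total mRNA library. It fell for 6 of 48 members and rose for 0 by edgeR, against 5.21% and 1.54% of 15878 genes (6.75% in either direction), with 17 lower and 6 higher at an unadjusted p under 0.05 (2389 and 1596 of all genes). DESeq2 called 11 lower and 2 higher (12.1% of all genes in either direction), and limma called RRP12 and UTP20 lower (4.33%). Without TMM, where the median of all genes was 0.29, 4 of the 6 were called lower and 5 other members higher (10.3% of all genes). The median log2 change was −0.58 for the members and 0.05 for all genes, and cultures did not overlap for 26 that were lower and 11 that were higher (28.3% and 26.5% of all genes). With 1 culture left out the members' median ran from −0.70 to −0.39. No member passed without shDAP5 culture 2, where almost no gene of any kind did. Without a term for each culture there were 0 calls (19 at an unadjusted p under 0.05), against 0.0% of all genes. By edgeR, taking the moderate pool as the heavy one gave 0 calls (7 at an unadjusted p under 0.05), against 0.0% of all genes. The median was then 0.36, the other direction. Taking the moderate pool as the light one gave 5 lower and 8 higher (23.9% of all genes) and a median of −0.04. This comparison shares its heavy libraries with those above, so their calls are not independent.

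RNA polymerase I makes the ribosomal precursor RNA, and its catalytic core is formed by POLR1A and POLR1B. POLR1A stood at 223 and 407 CPM in heavy polysomes of the shNSi cultures and at 87.8 and 79.2 CPM in those of the shDAP5 cultures. POLR1B stood at 98.6 and 142 against 39.7 and 36.6 CPM. Both shDAP5 values of each gene were far below both shNSi values. They were lower in total mRNA too, by less, at 137 and 148 against 95.3 and 132 CPM for POLR1A and at 47.9 and 54.5 against 35.9 and 45.2 CPM for POLR1B, with log2 changes of −0.30 and −0.31 that did not pass. The log2 changes in heavy polysomes were −1.73 for POLR1A (SE 0.35, adjusted p = 5.63e-05) and −1.47 for POLR1B (SE 0.33, adjusted p = 0.000264), and in heavy translation efficiency −1.37 and −1.15 (adjusted p = 0.0114 and 0.0230). POLR1D, a small subunit shared with RNA polymerase III, moved the other way, from 36.2 and 36.1 CPM in heavy polysomes of shNSi to 63.4 and 82.1 CPM in those of shDAP5 cultures. Its log2 change was 1.20 (SE 0.33, adjusted p = 0.00317), and its CPM was higher in light polysomes, at 225 and 132 against 233 and 203 CPM. POLR1C, shared with RNA polymerase III as well, had overlapping heavy levels of 94.7 and 92.1 against 69.9 and 98.5 CPM, and POLR1E did not pass at a log2 change of −0.45 (adjusted p = 0.299). Heavy over light polysomes passed for POLR1A, POLR1C, POLR1D and POLR1E in both lines, and the change between them passed for POLR1A and POLR1B alone, at −1.46 and −1.53. With the moderate pool in place of the heavy one POLR1A and POLR1B in heavy polysomes were at 0.50 and 0.10, and no subunit passed in heavy polysomes without shDAP5 culture 2.

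Fibrillarin (FBL) is the methyltransferase of box C/D particles, and NOP56 and NOP58 form their scaffold. In heavy polysomes NOP58 stood at 249 and 374 CPM in shNSi and at 128 and 143 CPM in shDAP5 cultures, which did not overlap. NOP56 stood at 283 and 573 against 191 and 281 CPM, and FBL at 424 and 368 against 370 and 638 CPM. For NOP56 the nearest cultures of the lines all but met in CPM and overlapped when heavy libraries were scaled alone, and for FBL they crossed. NOP58 fell by 1.01 on the log2 scale (SE 0.35, adjusted p = 0.0189), a call lost without shDAP5 culture 2 and at 0.16 with the moderate pool as control, and NOP56 and FBL at −0.66 and 0.54 did not pass (adjusted p = 0.145 and 0.256). In heavy translation efficiency NOP58, NOP56 and FBL were at −0.80, −0.62 and 0.65, which did not pass (adjusted p = 0.102, 0.232 and 0.230). FBL, the shortest of the 3, had heavy over light log2 ratios of 1.19 and −0.55 in the shNSi cultures and 0.92 and 1.75 in the shDAP5 cultures, so its place in the gradient differed between shNSi cultures by more than between lines.

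Of the box H/ACA proteins NOP10, a very small protein that holds the particle together, stood at 57.6 and 58.0 CPM in heavy polysomes of shNSi and at 105 and 130 CPM in those of shDAP5 cultures. NHP2, an RNA-binding protein of the same particle, stood at 48.1 and 54.5 against 83.1 and 122 CPM. DKC1, the pseudouridine synthase, went in the other direction, at 583 and 510 against 266 and 333 CPM. The lines did not overlap for any of the 3. In light polysomes they did overlap, with NOP10 at 496 and 283 against 429 and 371 CPM, and total mRNA of NOP10 was 199 and 194 against 224 and 174 CPM. NOP10 and NHP2 rose in heavy polysomes by log2 changes of 1.21 (SE 0.33, adjusted p = 0.00259) and 1.19 (SE 0.33, adjusted p = 0.00301), and in heavy translation efficiency by 1.15 and 1.04 (adjusted p = 0.0234 and 0.0354). DKC1 at −0.68 did not pass (adjusted p = 0.137). NOP10 had the lowest heavy over light ratio of all members, at −2.82 in shNSi and −1.80 in shDAP5 cells, where DKC1 had 2.06 and 1.60. The rises of NOP10 and NHP2 did not pass without shDAP5 culture 2 or with the moderate pool as control.

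Nucleolin (NCL), an abundant nucleolar protein that binds the precursor RNA, stood at 2350 and 3430 CPM in heavy polysomes of shNSi and at 1040 and 1290 CPM in those of shDAP5 cultures. Total mRNA was 979 and 1320 against 811 and 1120 CPM, and light polysomes 212 and 492 against 264 and 327 CPM. The heavy levels were apart and the others overlapped, and the shNSi moderate pools differed widely from each other, at 344 and 1580 CPM. NCL fell in heavy polysomes by 1.12 on the log2 scale (SE 0.39, adjusted p = 0.0177), and its heavy translation efficiency at −0.90 did not pass (adjusted p = 0.105). It had the highest heavy over light ratio of all members in shNSi cells, 3.01 (SE 0.42), and 1.94 in shDAP5 cells. With the moderate pool as control the heavy value was 0.29, and without shDAP5 culture 2 the fall did not pass.

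Of the 20 small subunit factors 13 fell and 3 rose in heavy polysomes, against 16.7% and 14.2% of all genes. UTP20, a very long scaffold protein, stood at 68.5 and 208 CPM in heavy polysomes of shNSi and at 30.4 and 20.9 CPM in those of shDAP5 cultures. RRP12, needed for export of the subunit, stood at 121 and 267 against 39.5 and 42.7 CPM, and NOL11, a partner of the UTP proteins that act in transcription, at 275 and 389 against 96.1 and 88.5 CPM. In each case both shDAP5 cultures were lower, and for UTP20 and RRP12 the shNSi cultures were far apart. Log2 changes were −2.23 for UTP20 (SE 0.36, adjusted p = 1.80e-06), −2.04 for RRP12 (SE 0.34, adjusted p = 1.09e-06) and −1.66 for NOL11 (SE 0.35, adjusted p = 0.000110). NOL6 followed at −1.61, and UTP14A, NOP14, UTP6, UTP4, NOL10, UTP14C, UTP18, NOP9 and UTP15 fell by 1.37 down to 0.94 on the same scale. NOL7, RRP36 and UTP23 rose, NOL7 from 104 and 88.6 CPM to 172 and 210 CPM, with log2 changes of 1.18, 1.10 and 0.86. The remaining RRP7A, RRP9, UTP11 and UTP3 did not pass, at 0.25, 0.00, 0.24 and −0.29.

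Heavy translation efficiency fell for 7 of these 20 factors and rose for 2, against 8.23% and 4.85% of all genes. Culture by culture, log2 of heavy over total for NOL11 was 1.25 and 1.48 in shNSi and 0.15 and −0.13 in shDAP5 cells, and for RRP12 it was 0.63 and 1.26 against −0.35 and −0.42. UTP20 gave −0.08 and 1.28 against −0.34 and −1.33, so the nearest cultures of its lines came close, at −0.08 and −0.34. The changes were −1.35 for NOL11 (SE 0.34, adjusted p = 0.00993), −1.33 for RRP12 (SE 0.34, adjusted p = 0.0108) and −1.44 for UTP20 (SE 0.41, adjusted p = 0.0267), with UTP14A, UTP6, NOL6 and NOP14 at −1.16, −1.06, −1.04 and −0.98. RRP36 and NOL7 rose by 1.04 and 1.08. In the change of heavy over light polysomes UTP20, RRP12, NOL11 and UTP6 fell by 1.96, 1.78, 1.56 and 1.36. Taking the moderate pool as the heavy one set unlike pools against each other and turned the direction of each. UTP20 then stood at 0.55, RRP12 at 1.27 and NOL11 at 0.66 in heavy translation efficiency. None of these calls was made without shDAP5 culture 2, where almost no gene of any kind passed.

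Of the 13 large subunit factors 4 fell and 1 rose in heavy polysomes, against 16.7% and 14.2% of all genes. In heavy translation efficiency NOP16 alone passed, with a rise of 1.09 on the log2 scale, where 4.85% of all genes rose and 8.23% fell. PES1 stood at 253 and 423 CPM in heavy polysomes of shNSi and at 105 and 149 CPM in those of shDAP5 cultures. NOP2, an RNA methyltransferase, stood at 263 and 429 against 120 and 146 CPM, and NOP16 at 61.7 and 76.6 against 90.2 and 165 CPM. The lines did not overlap for these 3. PES1 and NOP2 fell by 1.22 and 1.19 on the log2 scale (adjusted p = 0.00470 and 0.00568), NOL9 and NOL8 by 1.07 and 0.95, and NOP16 rose by a log2 change of 1.08 (adjusted p = 0.00793). BOP1 and WDR12, the partners of PES1, were at −0.72 and −0.67 and GNL3, a nucleolar GTPase, at −0.63, which did not pass (adjusted p = 0.0885, 0.106 and 0.166), though both shDAP5 cultures were lower for each. BOP1 had the highest heavy over light ratio of all members in shDAP5 cells, 2.11 against 2.37 in shNSi cells, and PES1 had 1.83 against 2.66. Without shDAP5 culture 2 none of the 13 passed in heavy polysomes, and with the moderate pool as control PES1 was at 0.35 and NOP16 at −0.24.

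The name matches were not alike. NOL4L, whose function is poorly known, had 9.61 and 11.5 CPM in heavy polysomes of shNSi and 28.8 and 17.2 CPM in those of shDAP5 cultures, with higher shDAP5 levels in total mRNA and light polysomes too. NOL3, an inhibitor of apoptosis, had 16.5 and 15.4 against 26.3 and 30.9 CPM in heavy polysomes and similar total mRNA, at 22.4 and 26.7 against 25.0 and 21.7 CPM. Both rose in heavy polysomes, by log2 changes of 1.31 and 1.03 (adjusted p = 0.00206 and 0.0136), calls that were lost without shDAP5 culture 2, and with the moderate pool as control NOL3 was at −0.19. Heavy translation efficiency rose for NOL3 by 1.06 (adjusted p = 0.0386), with −0.14 against the moderate pool, while NOL4L at 0.28 did not pass (adjusted p = 0.624). The antisense transcript NOP14-AS1 at 0.54 did not pass in heavy polysomes (adjusted p = 0.249).

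The members' changes followed the length of the coding sequence, with NOL4L, at 2040 nt and with the highest rise in heavy polysomes, as an exception. Across the 47 tested members with a coding length, Spearman's correlation with length was −0.868 for the heavy polysome change and −0.901 for heavy translation efficiency. Over all genes it was −0.654 and −0.710 (12330 and 12679 genes). Members and other genes share these libraries and are not independent, and no p is given. Among the 16 shortest members, from 192 to 1269 nt, 8 rose and 0 fell in heavy polysomes by edgeR and 7 rose in heavy translation efficiency, where 27.5% and 11.6% of all genes of such length rose. Among the 15 longest, from 2106 to 8355 nt, 13 fell in heavy polysomes and 8 in heavy translation efficiency, and all 15 lay toward heavy polysomes in shNSi cells. Of all genes of such length 42.9% and 27.9% fell, and 65.6% lay toward heavy polysomes. The 16 between them had 8 falls and 1 rise in heavy polysomes, against 20.4% and 4.41% of genes. Heavy over light polysomes correlated with length at 0.733 across members in shNSi cells and at 0.265 in shDAP5 cells, where all genes gave 0.646 and 0.300. The median coding length was 1647 nt for members and 1411 nt for all genes in the heavy polysome test.

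**Figure D3:**
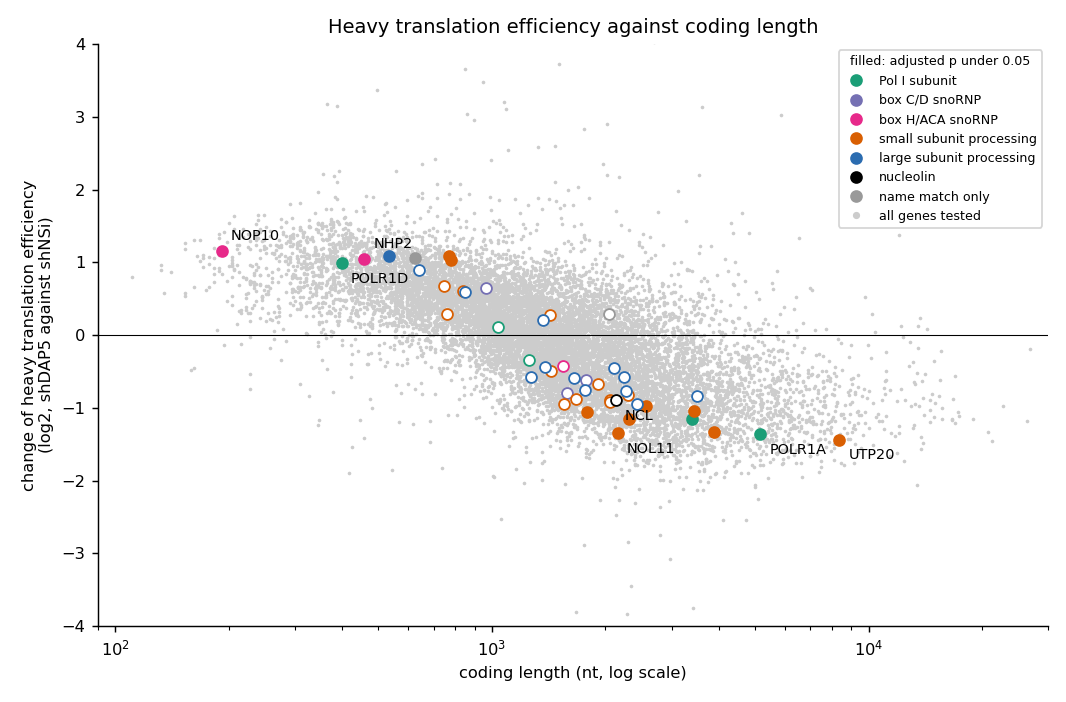
Change of heavy translation efficiency (log2, shDAP5 against shNSi) against coding length in nt (log axis), with all genes in grey and members coloured by role and filled where adjusted p was under 0.05. Of 12679 genes 9 lie outside the axes, short members such as NOP10 lie above 0 and long ones such as UTP20 below it, and with the shNSi moderate pool in place of the heavy one 3 of the 16 filled members keep their direction.

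An offset for coding length, fitted in each library, removed most member calls. In heavy polysomes NOL11, RRP12, UTP20 and UTP6 fell by 1.15, 1.13, 1.11 and 0.97 and NOL4L rose by 1.76, which is 4 and 1 of 47 members against 6.28% and 4.91% of 12330 genes. The medians were then −0.44 for the members and 0.03 for all genes. NOP10, whose heavy polysome change was 1.21 without the offset, stood at 0.20 (adjusted p = 0.609), and POLR1A at −0.73 (adjusted p = 0.0912). In heavy translation efficiency NOL11 alone passed, at −0.88 (SE 0.27, adjusted p = 0.0289), where 2.54% of 12679 genes fell and 2.41% rose, and the medians were −0.30 and 0.03. For the change of heavy over light 0 of 47 members passed by edgeR, with 7 at an unadjusted p under 0.05, against 0.656% and 0.594% of genes. The place in the gradient kept most of its calls but moved toward 0, since the members' median of heavy over light in shNSi cells was 0.98, where it was 1.70 without the offset, and NOP10 at −0.56 no longer passed (adjusted p = 0.0591). With the offset 28 members were higher and 4 lower in heavy polysomes of shNSi cells (27.1% and 23.9% of genes) and 24 and 3 in those of shDAP5 cells (21.0% and 19.0%). The offset takes away any difference that follows coding length, whatever its source, and the source was not tested.

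**Figure D4:**
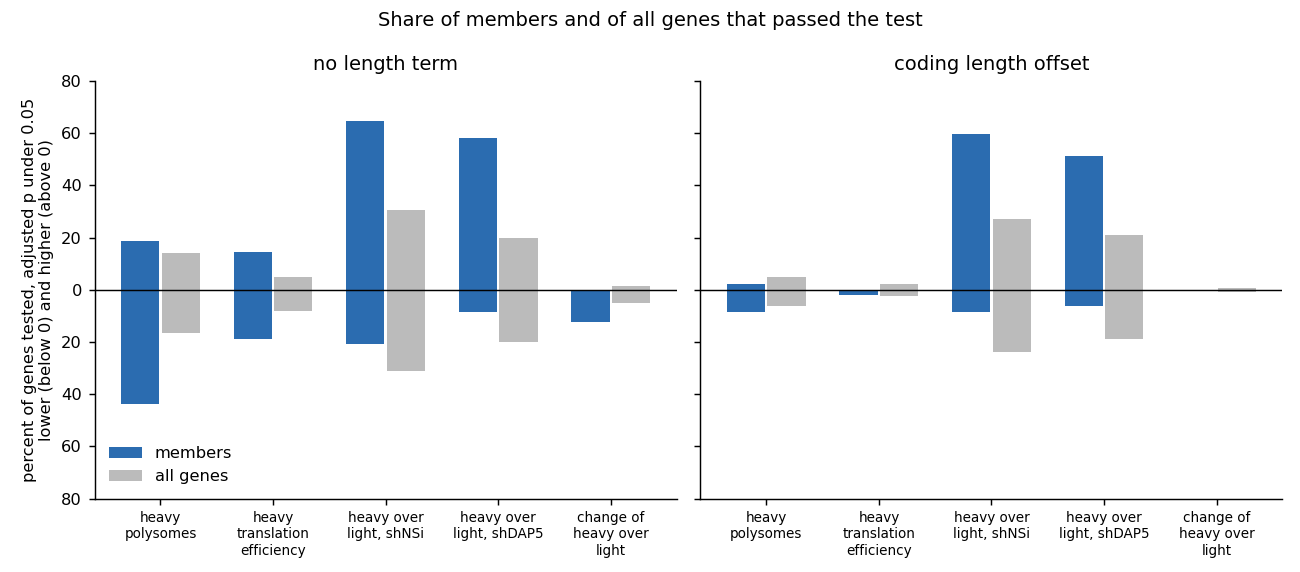
Percent of genes tested that passed at an adjusted p under 0.05, higher above 0 and lower below 0, for members (blue) and all genes (grey), without and with the coding length offset. Without the offset members exceed all genes on both sides of heavy polysomes and of heavy translation efficiency. They exceed all genes on the higher side of heavy over light in both panels. With the offset the lower side of heavy polysomes stands at 8.51% against 6.28%, and the calls in heavy translation efficiency shrink to NOL11.

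Other genes of the pathway were counted by role in heavy polysomes, where 16.7% of all genes fell and 14.2% rose. Of 33 other small subunit factors 17 fell and 2 rose, with HEATR1 at −2.03, WDR3 at −2.06, IMP3 at 0.97 and ABT1 at 1.05, and of 41 other large subunit factors 18 fell and 2 rose, with URB1 at −1.73, FTSJ3 at −1.70, TMA16 at 0.83 and EBNA1BP2 at 0.90. Of 15 other genes of RNA polymerase I transcription 2 fell and 4 rose (median log2 change 0.42), among them the initiation factors RRN3 at −1.35 and UBTF at −1.12 and the small subunits POLR2L at 1.81 and ZNRD1 at 1.66. Box particle and assembly genes split as well, 4 lower and 3 higher of 12, with TCOF1 at −1.85, NOLC1 at −1.49, PIH1D1 at 1.14 and ZNHIT3 at 1.32. Of 14 exosome genes 3 fell and 4 rose (median 0.50), with the nuclease DIS3 at −1.97, the helicase SKIV2L2 at −1.70, EXOSC1 at 1.23 and EXOSC4 at 1.26. In each list the named genes that fell are longer than those that rose, from 1953 to 6813 nt against 201 to 918 nt. Ribosomal protein mRNAs, the partners in the finished particle, went up, with 70 of 84 cytosolic and 47 of 78 mitochondrial ones higher and 0 and 1 lower by edgeR, and median coding lengths of 448 and 585 nt. With the coding length offset 1 of the 84 rose and of the 78 1 rose and 1 fell, against 4.91% of genes that rose and 6.28% that fell. With it 5 of the other small subunit factors fell and 0 rose, and 6 of the large subunit ones fell and 1 rose. Of the exosome genes 2 fell and 0 rose, and the polymerase I and box particle lists each had 1 lower and 0 higher. None of the 20 genes named here passed without shDAP5 culture 2, and with the shNSi moderate pool in place of the heavy one 16 of them had the other sign.

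Some members share sequence with other genes, and how such reads were counted is not known. UTP14C is a copy of UTP14A made from its mRNA, and in heavy polysomes it stood at 33.6 and 54.8 CPM in shNSi and at 19.6 and 15.6 CPM in shDAP5 cultures, where UTP14A stood at 159 and 297 against 75.4 and 79.4 CPM. Both were lower in shDAP5 cultures, and reads of one may have been given to the other. NOP14-AS1 overlaps NOP14 on the opposite strand, and RRP7A and NOP56 have pseudogenes in the count table.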

How the data were processed

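The deposited table holds read counts per gene symbol, which the authors made with STAR 2.6.0a on hg19 according to their notes; its name points to featureCounts and perhaps reverse-strand counting, and the notes state neither strand setting nor annotation. Members and lists were chosen with earlier results of these data known. Genes passing edgeR's count filter were tested with edgeR 4.0.16 in R 4.3.3 (TMM, robust quasi-likelihood), and p was adjusted over all genes by Benjamini and Hochberg. Ratios of fractions had a term for each culture. Alternatives were DESeq2 1.42.0, limma 3.58.1 on quantile-normalized log2(CPM + 1), library size alone, other filters, each culture left out, all 14 libraries in 1 fit, replicate block, the moderate pool in place of or added to its neighbours, and an offset for coding length (a spline with 5 degrees of freedom in each library). Named are EIF4G2, core members, up to 5 called members at each end, up to 2 per other list, and the most and least abundant of each role. Other members are named because they were called, chosen after their values were seen. Calls were tested on simulated data. Coding lengths came from GENCODE v29 and were known for 80.3% to 86.4% of genes tested. Replicates correlated at 0.940 (shNSi moderate) to 0.987 across 12107 genes. Dates stood in place of 27 symbols.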

Additional observations from a re-analysis of the deposited data

Results flagged for a closer look

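The change between fractions differed between the lines, by a test of the difference itself, for the members below. For heavy over light polysomes the difference (log2) was −1.96 for UTP20, −1.78 for RRP12, −1.56 for NOL11, −1.53 for POLR1B, −1.46 for POLR1A and −1.36 for UTP6. For heavy polysomes over total mRNA it was −1.44 for UTP20, −1.37 for POLR1A, −1.35 for NOL11, −1.33 for RRP12, −1.16 for UTP14A, −1.15 for POLR1B, −1.06 for UTP6, −1.04 for NOL6 and −0.98 for NOP14. It was 0.98 for POLR1D, 1.04 for RRP36 and for NHP2, 1.06 for NOL3, 1.08 for NOL7, 1.09 for NOP16 and 1.15 for NOP10. In each case both shDAP5 cultures lay beyond both shNSi cultures. None passed without shDAP5 culture 2, where almost no gene of any kind did. With the coding length offset NOL11 alone of the 16 passed in heavy over total and 0 of the 6 in heavy over light by edgeR (7 members at an unadjusted p under 0.05). With the shNSi moderate pool in place of the heavy one 3 of the 16 and 0 of the 6 kept their direction. What makes the changes follow coding length was not tested.

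Of the pseudogenes that the member rule leaves out, NOP56P2 had 0 counts in every library and NOL8P1 at most 2. The others had reads, with a median count over the 14 libraries of 278.5 for RRP7BP, 27.5 for NOP56P1 and 6.0 for NOP56P3. Whether these reads come from the pseudogenes or from RRP7A and NOP56 cannot be told apart in a table of counts.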

How the results depend on the processing

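Of 109 named results, recomputed under the alternatives that apply to each, 1063 of 1588 values kept direction and side of the threshold, 466 kept direction but were no longer past it, and 59 changed sign. The cause was not tested for any of the changes below. Some counts of members under an alternative, here and above, stand without the share of all genes. Such counts do not show whether the members moved more than other genes.

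Members called in total mRNA (0 by edgeR, 6 at an unadjusted p under 0.05) were 1 with DESeq2, 2 without a filter and 1 with a replicate block. In light polysomes (0 by edgeR, 3 unadjusted, 0 by DESeq2 and limma) they were 1 without a filter and 15 with moderate in place of light. In heavy polysomes (30) they were 0 with moderate in place of heavy, 3 with the pools added and 5 with the length offset. In light translation efficiency (0 by edgeR, DESeq2 and limma, 0 unadjusted by edgeR) they were 15 with moderate and 1 with the pools added. The 15 were 10 lower and 5 higher, against 27.5% of all genes, and the 1 was lower, against 2.86%. In heavy translation efficiency (16) they were 0 without TMM, without a culture term, with moderate or with the pools added, 6 with limma, 4 with a replicate block, 1 with the offset and 1 with offset and block. In heavy over light of shNSi cells (41) they were 20 with moderate in place of heavy. In the change of heavy over light (6) they were 13 with DESeq2, 2 with limma, 3 with a replicate block, 0 without a culture term, with the offset, with offset and block, with moderate as heavy or with the pools added, 13 with moderate as light and 14 with light and moderate added. Cultures of the lines share only a number, and same-numbered deviations correlated at −0.102 in total mRNA, 0.0498 in light and 0.0529 in heavy polysomes, −0.204 in heavy translation efficiency and −0.165 in the change of heavy over light. With crossed replicate numbers, chosen after seeing the data, the calls were 0 by edgeR in total mRNA (6 unadjusted), 27 in heavy translation efficiency and 11 in the change of heavy over light.

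Leaving out 1 culture, where the lone sample is assumed to vary like the others, gave 0 to 2 in total mRNA, 0 to 23 in light, 0 to 28 in heavy polysomes, 0 to 9 in light and 0 to 21 in heavy translation efficiency, 39 to 41 and 7 to 38 in heavy over light of shNSi and shDAP5 cells, and 0 to 18 in its change. The members' median ran from −0.63 to −0.48 in heavy translation efficiency and from −0.70 to −0.39 in the change of heavy over light.

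The median in heavy translation efficiency (−0.58) was −0.36 without TMM, −0.37 with limma, −0.30 with the offset and −0.30 with offset and block, 0.30 with moderate as heavy and 0.00 with the pools added. In the change of heavy over light (−0.58) it was −0.34 without TMM, −0.33 with limma, −0.34 with the offset and −0.34 with offset and block, 0.36 with moderate as heavy, −0.07 with heavy and moderate added, −0.04 with moderate as light and −0.19 with light and moderate added.

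Signs changed with moderate in place of heavy, which sets unlike pools against each other. In heavy translation efficiency: NOL11 0.66, NOL3 −0.14, NOL6 0.93, NOL7 −0.24, NOP14 1.13, NOP16 −0.21, POLR1A 0.83, POLR1B 0.43, RRP12 1.27, RRP36 −0.18, UTP14A 0.96, UTP20 0.55 and UTP6 0.59. In heavy polysomes: NCL 0.29, NOL10 0.13, NOL11 0.23, NOL3 −0.19, NOL6 0.29, NOL7 −0.25, NOL8 0.16, NOL9 0.16, NOP14 0.67, NOP16 −0.24, NOP2 0.34, NOP58 0.16, NOP9 0.27, PES1 0.35, POLR1A 0.50, POLR1B 0.10, RRP12 0.49, RRP36 −0.13, UTP14A 0.61, UTP15 0.32, UTP23 −0.28, UTP4 0.15, UTP6 0.20, ABT1 −0.27, DIS3 0.17, EBNA1BP2 −0.19, EXOSC1 −0.20, EXOSC4 −0.16, FTSJ3 0.25, HEATR1 0.45, IMP3 −0.34, NOLC1 0.79, RRN3 0.53, SKIV2L2 0.52, TCOF1 0.53, TMA16 −0.12, URB1 0.05, WDR3 0.54 and ZNHIT3 −0.11. In the change of heavy over light: NOL11 0.52, POLR1A 0.81, POLR1B 0.11, RRP12 0.88, UTP20 0.08 and UTP6 0.36. With moderate in place of light, POLR1C in heavy over light of shNSi cells was −0.06.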

Other observations

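The moderate polysome pool exists for shNSi cells alone and so belongs to no comparison of the lines by its label. In culture 1 it lay between the light and heavy pools for 31 of 48 members, with a median log2 difference of 0.27 from light to moderate and 1.48 from moderate to heavy. In culture 2 it lay between them for 38 of 48, with medians of 0.65 and 0.57. NCL stood at 344 and 1580 CPM there, FBL at 482 and 703 CPM, and NOL11 at 45.6 and 114 CPM.

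Each line was grown as 2 cultures, so the tests borrow their estimate of spread from other genes. These values rest on 1 silencing construct, and the count table holds no measure of protein, of ribosomal RNA or of ribosomes on each mRNA. Coding length is that of 1 reference transcript per gene, the isoform present in these cells was not determined, and the genome build of the counts differs from that of the reference. Effects of DAP5, the construct, the line and the gradient run cannot be told apart.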
